A study of Mus musculus with 14 samples.

Results

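Expression of 10 genes of cell division was followed in sorted mouse hair follicle stem cells by bulk RNA sequencing. They were chosen by name: the cyclin genes Ccna2, Ccnb1 and Ccnb2, the kinase genes Cdk1, Plk1, Aurka and Aurkb, the genes Cdc20 and Ube2c of the anaphase-promoting complex (APC/C) system, and Mki67. They are 10 of the 34049 genes with a count in any library, and all 10 were among the 24592 genes that passed the filter on low counts. Back skin of mice aged 18 (P18) or 20 (P20) days gave the libraries: at P18, 3 labelled Irx5 knockout (Irx5KO) and 3 labelled wild type (WT), and at P20, 4 with each label. The sorted cells stained for CD34, a surface marker of bulge stem cells, and for an antigen that the labels spell CD45f, and lacked Ly-6A/E. The sources used here give neither the Irx5 allele, the strain nor the sex of the mice, nor whether each library is a mouse of its own. All p-values thus rest on library-to-library spread, part of which could be technical. The series title names activation of these stem cells as a question, and the level of mitotic genes is a readout of it.

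CDK1 bound to cyclin A2 or to a B-type cyclin is the kinase that starts mitosis. PLK1 and the Aurora kinases act with it on centrosomes, spindle and kinetochores, and the APC/C, with its activator CDC20 and its ubiquitin-conjugating enzyme UBE2C, then marks cyclins for destruction so that the cell can leave mitosis. The protein encoded by Mki67 coats mitotic chromosomes and is low or absent in resting cells. Stem cells of the hair follicle bulge rest through most of the hair cycle and divide for a short time when a new hair grows.

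Transcription of such genes is known to be held off in resting cells and switched on before mitosis through a short promoter element, the cell cycle genes homology region (CHR), and through CCAAT boxes, which bind the factor NF-Y. The promoters of Mki67, Cdk1, Ccnb2 and Cdc20 are shown, which each held a CHR match on the gene's strand before the annotated start. They are the bases just before the annotated start, from RefSeq's promoter table of build GRCm38.p6, written 5′ to 3′ on the strand of the gene, with matches to TTTGAA (the CHR) and CCAAT on either strand in capitals.
Mki67, chr7:135716380-135716629, minus strand: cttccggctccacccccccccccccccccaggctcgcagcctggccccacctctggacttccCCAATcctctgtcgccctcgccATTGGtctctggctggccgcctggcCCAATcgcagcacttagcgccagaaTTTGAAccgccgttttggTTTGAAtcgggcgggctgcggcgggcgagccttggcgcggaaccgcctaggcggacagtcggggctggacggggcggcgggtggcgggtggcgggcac
Cdk1, chr10:69352913-69353062, minus strand: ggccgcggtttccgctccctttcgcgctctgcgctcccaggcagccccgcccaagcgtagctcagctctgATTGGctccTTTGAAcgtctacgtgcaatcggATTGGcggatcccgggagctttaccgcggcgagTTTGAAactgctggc
Ccnb2, chr9:70421555-70421804, minus strand: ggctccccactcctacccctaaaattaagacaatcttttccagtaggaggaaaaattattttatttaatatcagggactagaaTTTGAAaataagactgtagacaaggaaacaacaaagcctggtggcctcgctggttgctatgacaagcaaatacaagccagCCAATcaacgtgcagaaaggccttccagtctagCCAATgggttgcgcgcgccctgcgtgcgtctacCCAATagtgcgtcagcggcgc
Cdc20, chr4:118437344-118437493, minus strand: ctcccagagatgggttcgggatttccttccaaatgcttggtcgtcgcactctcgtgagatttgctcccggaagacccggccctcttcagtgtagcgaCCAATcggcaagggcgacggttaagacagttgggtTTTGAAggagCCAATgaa

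In that table, 8 of the 10 genes were found by symbol (not Ccna2 and Aurkb). Within the window from 250 bases before to 50 bases after the start, TTTGAA was present on either strand in 7 of these 8 promoters, with Ccnb1 as the exception, against 17.9% of the 32851 promoters of the table. CCAAT was present in 8 of 8, against 37.4% of promoters, and at least 2 copies in 7 of 8 (all but Plk1), against 11.7%. Both motifs occurred together in 7 of 8, against 7.0% of promoters. Counted from the start, the TTTGAA matches of Mki67 began at positions −116 and −98, those of Cdk1 at −71 and −15, and that of Cdc20 at −18. Ccnb2 had TTTGAA at −167 and again at base 5 of the transcript, and CCAAT at −87, −54 and −21. In Ube2c 2 CCAAT matches on opposite strands overlapped. The motifs do not overlap each other otherwise. TTTGAA was on the opposite strand in Ube2c and after the start in Plk1 and Aurka. A match describes letters and not a bound site. Whether the motifs bear on the levels of these genes was not tested.

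The libraries held between 13618367 and 70083873 estimated counts. Each age had 2 dates, read from a 6-digit code in the names of the deposited tables, with both genotypes on each date. The sources used here do not say what the code marks. At P20 the later date held libraries 1 and 2 of both genotypes and the earlier date libraries 3 and 4. The targeted gene followed the labels at P18, at 48.0 to 73.4 CPM (counts scaled to a common library total) under the Irx5KO label and 93.8 to 132 CPM under the WT label, and at the later P20 date, at 18.1 to 30.0 against 93.5 to 108. In the edgeR quasi-likelihood test the P18 difference of Irx5 did not pass (log2 fold change −0.98, SE 0.88, adjusted p = 0.92). Its difference on the later P20 date did (−2.06, SE 0.27, adjusted p = 0.0018). At the earlier P20 date Irx5 went against the labels: it stood at 181 and 170 CPM under the Irx5KO label, and at 33.2 and 37.5 CPM under the WT label. Genotype at P20 is therefore written as the label throughout, and pooled P20 values are given with and without libraries 3 and 4. P18 WT 3 carries the word het in its deposited data name, and its Irx5 level of 132 CPM was the highest at P18. Olfactory and vomeronasal receptor genes took 1.78% of counts in P18 WT 1, 5.37% in P18 WT 2 and 2.37% in P20 WT 2, against 0.102% to 0.605% elsewhere. The Y-linked gene Ddx3y was at most 0.571 CPM in the 3 libraries of the earlier P18 date, in P20 Irx5KO 1 and in P20 WT 1, and 53.6 to 136 CPM in the other libraries, so at P18 date and sex cannot be told apart.

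At P20, 4 libraries stood high for the 10 genes: the 2 labelled WT on the later date and the 2 labelled Irx5KO on the earlier date. By label, the direction of the genotype difference was therefore opposite on the 2 dates. By the level of Irx5 it was not: on both dates the 2 libraries with more Irx5 were those with the higher mean CPM of each of the 10 genes. Whether the labels of libraries 3 and 4 were exchanged was not tested. On the later date Mki67 and Ccnb1 fell in the libraries labelled Irx5KO, and on the earlier date every gene of the 10 except Aurkb rose in them, by 4.55 to 7.53 on the log2 scale. In bulk RNA, a smaller share of dividing cells and less of this RNA in each cell cannot be told apart.

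Mki67, the proliferation marker, ran from 3.75 to 1418 CPM over the P20 libraries, the widest range in CPM of the 10 genes. On the later P20 date it stood at 429 and 228 CPM in WT 1 and 2, and at 18.5 and 14.5 CPM in Irx5KO 1 and 2. On the earlier date it stood at 1252 and 1418 CPM in Irx5KO 3 and 4, and at 10.52 and 3.75 CPM in WT 3 and 4. The groups did not overlap on either date. The mean of the 2 WT libraries was 19.9 times that of Irx5KO on the later date, and the mean of the 2 Irx5KO libraries was 187 times that of WT on the earlier date. Mki67 fell by 4.32 ± 0.45 (log2 fold change ± SE, labelled Irx5KO minus labelled WT; edgeR quasi-likelihood test, adjusted p = 4.3e-04) on the later date and rose by 7.53 ± 0.52 (adjusted p = 7.7e-06) on the earlier date.

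**Figure D1:**
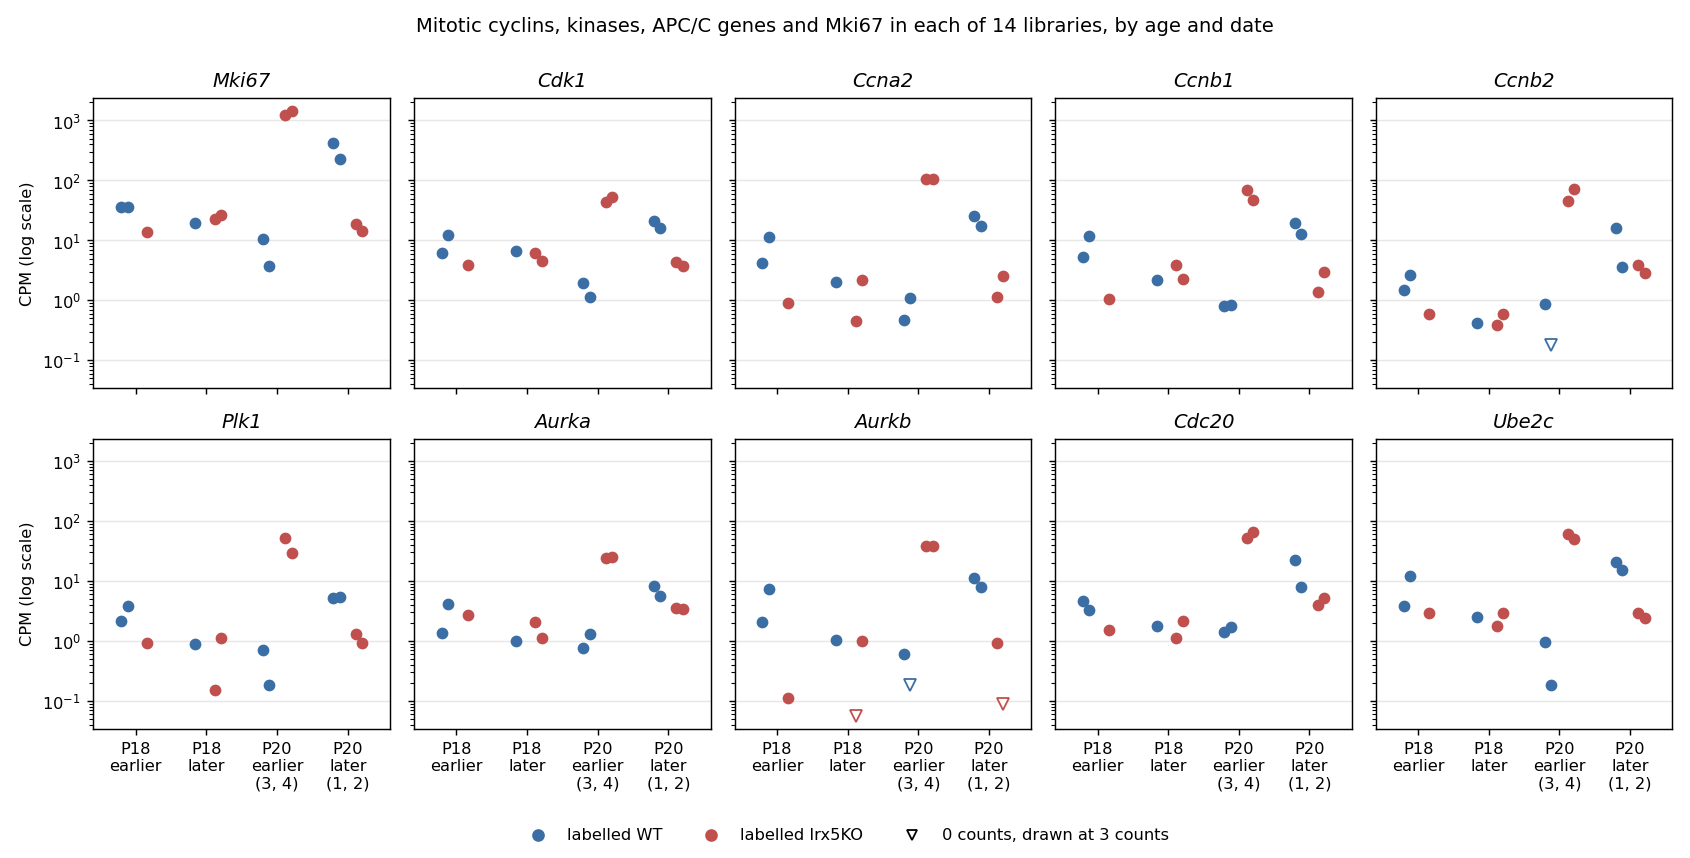
CPM (log scale) of the 10 genes in each of the 14 libraries, by age and date, with libraries labelled WT in blue and Irx5KO in red. Each point is 1 library, and open triangles mark 0 counts, drawn at the level of 3 counts. At P20 the red points are high on the earlier date (Mki67 at 1252 and 1418) and the blue points on the later date (Mki67 at 429 and 228).

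Cdk1 encodes the catalytic partner of the mitotic cyclins. It stood at 21.2 and 16.3 CPM in WT 1 and 2 against 4.34 and 3.82 CPM in Irx5KO 1 and 2, and at 44.0 and 52.2 CPM in Irx5KO 3 and 4 against 1.96 and 1.15 CPM in WT 3 and 4. Again no library of the lower label reached the higher one on either date. The later-date difference of −2.20 ± 0.49 did not pass (adjusted p = 0.058), and on the earlier date Cdk1 rose by 4.93 ± 0.55 (adjusted p = 8.9e-05). The later-date difference passed under some alternatives, among them no filter on low counts (adjusted p = 0.011) and DESeq2 (2.7e-04). It did not pass with limma voom and sample quality weights.

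Among the cyclins, Ccna2, whose product acts in S phase and at mitotic entry, was high in the same 4 libraries. Its values were 25.2 and 17.7 CPM in WT 1 and 2, 1.12 and 2.54 CPM in Irx5KO 1 and 2, 106 and 104 CPM in Irx5KO 3 and 4, and 0.466 and 1.09 CPM in WT 3 and 4. The higher label stood above the lower by 11.7 times on the later date and 135 times on the earlier date, in mean CPM. The later difference was −3.55 ± 0.77 (adjusted p = 0.087), and on the earlier date Ccna2 rose by 7.12 ± 0.92 (adjusted p = 0.0012). Its later difference passed with no filter (adjusted p = 3.9e-09) and with DESeq2 (1.1e-04), among others, and not with voom.

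Ccnb1 encodes the main B-type cyclin of mitotic entry. It stood at 19.3 and 12.8 CPM in WT 1 and 2 against 1.38 and 2.96 CPM in Irx5KO 1 and 2, and at 68.6 and 48.1 CPM in Irx5KO 3 and 4 against 0.799 and 0.847 CPM in WT 3 and 4. It fell by 2.89 ± 0.57 on the later date (adjusted p = 0.027) and rose by 6.14 ± 0.67 on the earlier date (adjusted p = 7.6e-05). The later call for Ccnb1 is lost under several alternatives, among them leaving out P20 Irx5KO 1 (adjusted p = 0.34), Irx5KO 2 (0.14), WT 1 (0.099) or Irx5KO 3 (0.055), and counting protein-coding transcripts alone (0.73).

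Ccnb2, the second B-type cyclin gene, was the only one of the 10 whose groups overlapped on the later date. It stood at 16.1 and 3.67 CPM in WT 1 and 2 against 3.86 and 2.84 CPM in Irx5KO 1 and 2, where WT 2 lay below Irx5KO 1. On the earlier date it stood at 45.6 and 73.0 CPM in Irx5KO 3 and 4, at 0.865 CPM in WT 3 and at 0 counts in WT 4, where 3 counts would be 0.181 CPM. The later difference of −1.56 ± 0.95 did not pass (adjusted p = 0.75), and the rise of 6.97 ± 1.22 on the earlier date passed (adjusted p = 0.0068).

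Plk1 encodes a kinase of mitotic entry and spindle assembly. Its level was 5.21 and 5.49 CPM in WT 1 and 2, 1.32 and 0.926 CPM in Irx5KO 1 and 2, 53.1 and 29.5 CPM in Irx5KO 3 and 4, and 0.699 and 0.181 CPM in WT 3 and 4. The difference was −2.25 ± 0.85 on the later date (adjusted p = 0.53), and Plk1 rose by 6.48 ± 1.04 on the earlier date (adjusted p = 0.0017). Of the 10 genes, Plk1 showed the largest ratio of mean CPM between the 2 higher sets, 7.71 between Irx5KO of the earlier date and WT of the later date.

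Aurka, the Aurora kinase of centrosomes, and Aurkb, the Aurora kinase of centromeres and the midzone, differed in how well they were measured. Aurka stood at 8.42 and 5.53 CPM in WT 1 and 2, 3.51 and 3.46 CPM in Irx5KO 1 and 2, 23.9 and 24.9 CPM in Irx5KO 3 and 4, and 0.766 and 1.33 CPM in WT 3 and 4. It had the smallest differences of the 10 on both dates, −1.0 ± 0.74 (adjusted p = 0.81) and a rise of 4.55 ± 0.85 (adjusted p = 0.0053), and without P20 WT 3 that rise did not pass (4.14 ± 1.17, adjusted p = 0.11). Aurkb stood at 11.1 and 7.98 CPM in WT 1 and 2, at 0.921 CPM in Irx5KO 1 and 0 counts in Irx5KO 2, at 38.5 and 37.6 CPM in Irx5KO 3 and 4, at 0.599 CPM in WT 3 and at 0 counts in WT 4. The 0 counts allow up to 0.0896 CPM in Irx5KO 2 and 0.181 CPM in WT 4, counting error only. The Aurkb groups did not overlap on either date, and neither −4.36 ± 2.20 (adjusted p = 0.74) nor 6.85 ± 2.48 (adjusted p = 0.21) passed. The earlier-date difference of Aurkb did pass, in the same direction, with no filter on low counts (adjusted p = 2.2e-10), with DESeq2 (0.03), with limma voom and sample quality weights (0.0013), on log2(TPM + 1) (0.002) and with the compared groups alone (0.02). The later-date difference of Aurkb passed with no filter (adjusted p = 6.5e-05) and under no other alternative.

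Cdc20 encodes the mitotic activator of the APC/C. It stood at 22.7 and 7.98 CPM in WT 1 and 2, 4.00 and 5.23 CPM in Irx5KO 1 and 2, 51.6 and 66.2 CPM in Irx5KO 3 and 4, and 1.40 and 1.69 CPM in WT 3 and 4. Its later difference was −1.73 ± 0.55 (adjusted p = 0.31), and it rose by 5.25 ± 0.64 on the earlier date (adjusted p = 1.9e-04). Ube2c, the gene of the enzyme that starts ubiquitin chains on APC/C substrates, stood at 20.9 and 15.5 CPM in WT 1 and 2, 2.96 and 2.39 CPM in Irx5KO 1 and 2, 60.4 and 50.7 CPM in Irx5KO 3 and 4, and 0.965 and 0.181 CPM in WT 3 and 4. Its later difference was −2.76 ± 0.66 (adjusted p = 0.092), and it rose by 6.51 ± 0.80 on the earlier date (adjusted p = 1.9e-04). The later difference of Ube2c passed with no filter (adjusted p = 4.8e-04) and with DESeq2 (0.0024), among others, and not with voom. That of Cdc20 passed without the 3 receptor-rich libraries (adjusted p = 0.024).

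**Figure D2:**
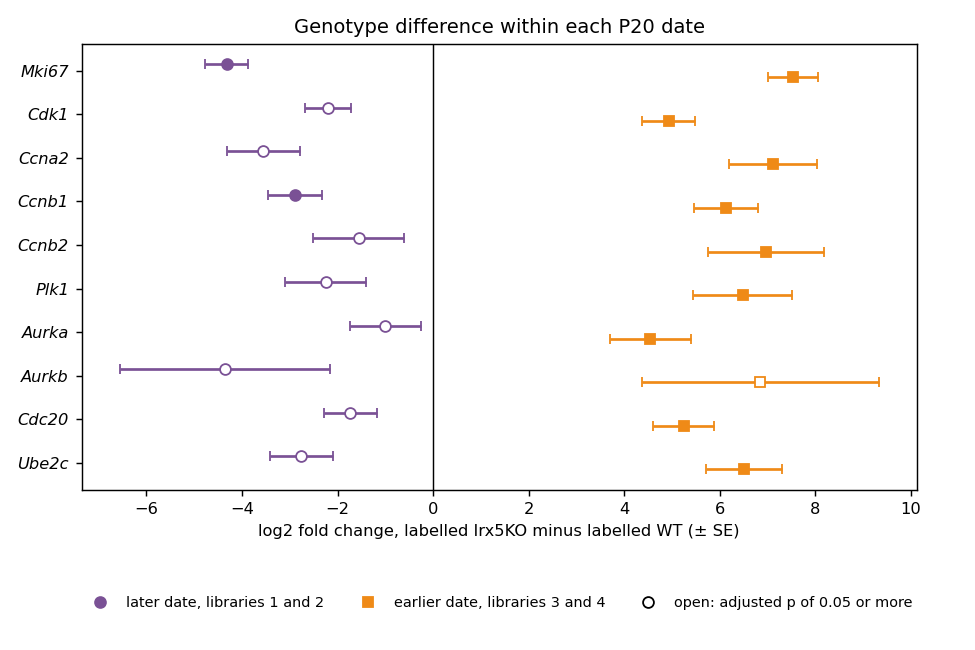
Log2 fold change (labelled Irx5KO minus labelled WT, ± SE) of each gene at P20 within the later date (purple circles) and the earlier date (orange squares), from 1 edgeR fit over 14 libraries. Filled points passed at an adjusted p under 0.05. The later values run from −4.36 to −1.0 and the earlier values from 4.55 to 7.53, with Aurkb open on both dates.

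On the later date, 2 of the 10 genes fell and none rose, where 0.655% of all genes tested passed in either direction. All 10 differences were negative, with a median of −2.51 against −0.34 over all genes tested. At an unadjusted p under 0.05 there were 7 of the 10, and 1702 of the 24592 genes tested. In 9 of the 10 genes both Irx5KO libraries lay below both WT libraries, which held for 17.3% of all genes tested. On the earlier date, 9 of the 10 rose, where 4.83% of all genes passed in either direction, and the median was 6.50 against 0.00 over all genes tested. In 10 of 10 both Irx5KO libraries lay above both WT libraries, which held for 15.7% of all genes tested. The difference between the 2 dates was tested directly: 9 of the 10 passed, all with the later date lower, where 5.18% of all genes passed. The size of this date difference ran from −5.55 ± 1.11 for Aurka to −11.85 ± 0.68 for Mki67, with Aurkb at −11.21 ± 3.30 (adjusted p = 0.12). Without P20 Irx5KO 2, Aurka and Ccnb2 no longer passed in the date difference (adjusted p = 0.057 and 0.062), and without P20 WT 3, Aurka did not (adjusted p = 0.069).

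Over both dates, the P20 comparison called none of the 10, where 0% of all genes passed. At an unadjusted p under 0.05 there were 1082 genes of all tested and none of the 10. DESeq2 called 91 genes and limma voom with sample quality weights 181, with 0 and 9 of the 10 among them. The pooled differences were all positive, 1.18 to 2.59, and that of Mki67 was 1.59 ± 6.25. Without libraries 3 and 4 the difference of Mki67 was −4.33 ± 0.47 (adjusted p = 0.0019) and the median of the 10 was −2.51. Leaving out P20 WT 3 or P20 WT 4 turned the pooled value of Mki67 to −2.67 in both cases, and leaving out P20 Irx5KO 1 or Irx5KO 2 raised it to 5.87 in both. The pooled value is 1 coefficient for both dates, from a fit with date as a covariate, while the differences on the 2 dates were opposite.

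Over the 6 sets formed by label and age, with the P20 dates apart, the order at the ends was the same for each of the 10 genes. Irx5KO of the earlier P20 date had the highest mean CPM in 10 of 10, WT of the later P20 date the second highest in 10 of 10, and WT of the earlier P20 date the lowest in 10 of 10. The highest set did not overlap with the next in 10 of 10 genes, and the second highest did not overlap with the third in 9 of 10, Ccnb2 being the exception. At the low end, the fifth set and the lowest did not overlap in 4 of 10 genes only. The sets were ranked by these same values and the share over all genes was not counted, so this is a description. The 3 sets in between, both labels at P18 and Irx5KO of the later P20 date, changed places among themselves: the third and the fourth did not overlap in 3 of 10 genes only. For Mki67 the means ran from 1335 and 328 CPM in the 2 highest sets through 30.7 CPM in P18 WT, 21.1 CPM in P18 Irx5KO and 16.5 CPM in the later P20 Irx5KO to 7.14 CPM in the earlier P20 WT. For Cdk1 they ran from 48.1 and 18.8 CPM through 8.45, 4.91 and 4.08 CPM to 1.56 CPM in the same order.

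At P18 all 10 genes were low in both labels. Mki67 stood at 14.1, 22.7 and 26.6 CPM in Irx5KO 1, 2 and 3 and at 36.0, 36.5 and 19.6 CPM in WT 1, 2 and 3, so the groups overlapped. Cdk1 stood at 3.97, 6.15 and 4.61 CPM in Irx5KO against 6.24, 12.4 and 6.72 CPM in WT, and did not overlap. The other 8 genes lay between 0 counts and 3.90 CPM in Irx5KO and between 0.427 and 12.1 CPM in WT, and P18 WT 2 had the highest P18 value in 9 of the 10 genes, the exception being Cdc20, which was highest in P18 WT 1. None of the 10 passed, and 0% of all genes did. There were 977 genes of all tested at an unadjusted p under 0.05 and none of the 10, and DESeq2 called 22 genes and limma voom with sample quality weights 1, none of the 10 among them. The differences ran from −3.00 ± 3.53 (Aurkb) to 0.32 ± 1.07 (Aurka) with a median of −0.79, against −0.55 over all genes tested. That of Mki67 was −0.52 ± 2.35.

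The P18 difference was not alike on the 2 dates. On the earlier date, which holds WT 1, WT 2 and Irx5KO 1, all 10 differences were negative, with a median of −1.58 and adjusted p of at least 0.56. On the later date, which holds WT 3, Irx5KO 2 and Irx5KO 3, 6 of 10 were negative, with a median of −0.135 and adjusted p of 1. WT 1 and WT 2 are the receptor-rich libraries of P18, and their T cell marker sums were 384 and 1314 CPM against 159 to 211 CPM in the other P18 libraries. Thy1 alone ran from 28.2 to 1231 CPM over the 14 libraries, while each of the other 5 T cell markers stayed at or below 40.1 CPM. Without the 3 receptor-rich libraries the P18 median of the 10 genes was −0.14 and Mki67 stood at 0.32. With single libraries left out, that median ran from −1.52 (without P18 WT 3) to −0.10 (without P18 Irx5KO 1). It was −1.36 with no date term and −1.11 with the replicate block.

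Between the ages, date and age cannot be told apart, since each age had its own dates. In libraries labelled WT, none of the 10 passed for P20 against P18, where 0.195% of all genes did. The differences ran from 0.27 to 2.45, the last for Mki67 (2.45 ± 1.78, adjusted p = 0.65), with a median of 0.75 against −0.80 over all genes tested. Without libraries 3 and 4 of P20, Mki67 rose with age in WT by 3.44 ± 0.37 (adjusted p = 9.2e-04). In libraries labelled Irx5KO, none of the 10 passed, where 1.57% of all genes did. The differences ran from 2.41 to 5.88 with a median of 4.59 against 0.00. At an unadjusted p under 0.05 there were 8 of the 10, and 3320 of the 24592 genes tested. Mki67 stood at 5.0 ± 2.03 (adjusted p = 0.32), and without libraries 3 and 4 at −0.36 ± 0.36 (adjusted p = 0.73). DESeq2 called 8 of the 10 in this comparison, among 1390 genes called of 24592.

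Per unit of transcript length, the make-up of the group also differed between libraries. On the TPM scale, Mki67 was the highest of the 10 in P20 WT 1 and 2 and in P20 Irx5KO 3 and 4, at 45.4, 24.7, 134 and 126 TPM, where it made up 26.0%, 21.7%, 24.5% and 24.2% of the summed TPM of the 10 genes. In the other 10 libraries it held 5.24% to 16.01% of that sum, at 0.434 to 4.46 TPM, and ranked between the second and the ninth. Cdk1 held 11.8% to 17.97% in those 4 libraries and 9.14% to 19.0% in the others, which overlap. Cdc20 held 4.46% to 7.89% in the 4 and 4.94% to 29.6% in the others, and Aurka 2.40% to 4.39% against 3.90% to 15.4%. The summed level of the 10 genes was 579 and 321 CPM in P20 WT 1 and 2, 1743 and 1904 CPM in Irx5KO 3 and 4, and 10.2 to 106 CPM elsewhere. These 4 libraries were named from the levels of the same genes, so the values are a description, with no test.

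**Figure D3:**
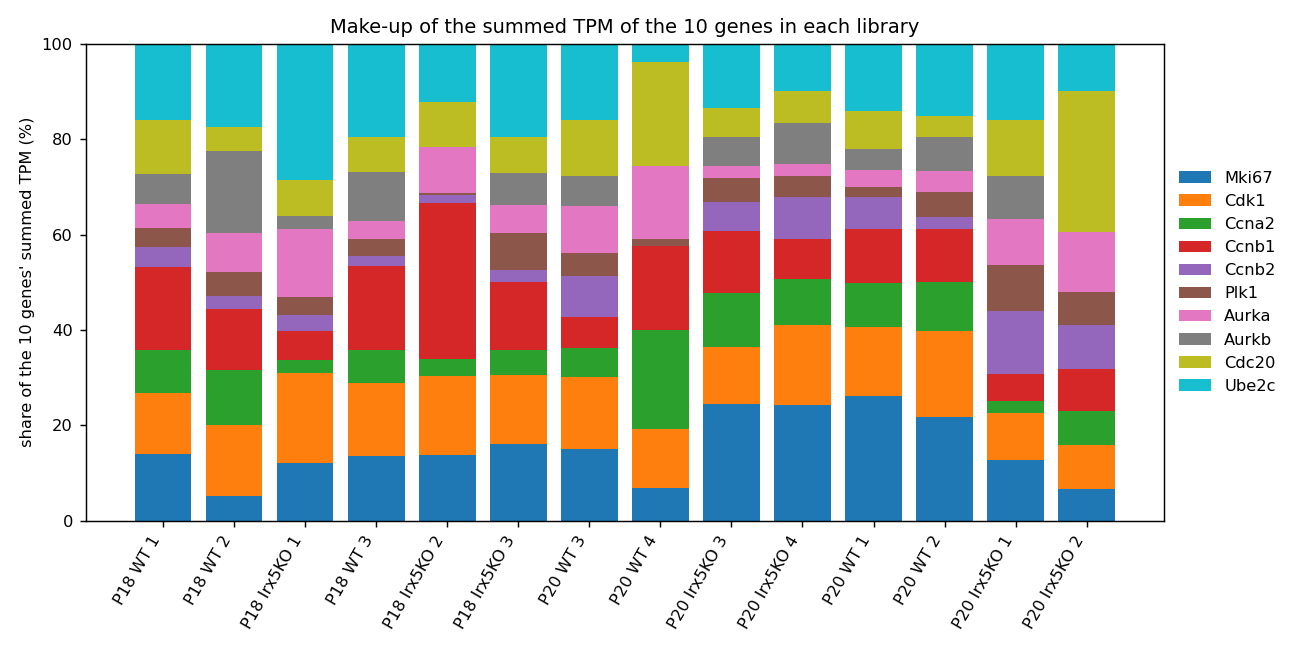
Share (%) of each gene in the summed TPM of the 10 genes, 1 bar per library. The lowest segment, Mki67, holds 21.7% to 26.0% in P20 Irx5KO 3 and 4 and P20 WT 1 and 2, and 5.24% to 16.01% in the other libraries.

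In 7 of the 10 genes some counts were assigned to transcripts that do not encode protein. Protein-coding transcripts held 47.8% of all counts of Ccna2, 53.4% of Aurkb, 61.1% of Ccnb1, 80.4% of Cdk1, 89.6% of Aurka, 95.8% of Cdc20 and 96.4% of Plk1. For Ccnb1, protein-coding transcripts held 79.5% of 1869 estimated counts in the earlier P20 Irx5KO libraries and 71.1% of 1085 in the later P20 WT libraries, against 32.3% of 147 in the later P20 Irx5KO libraries and 21.7% of 37.9 in the earlier P20 WT libraries. The remainder of Ccnb1 was assigned to retained-intron transcripts, and the transcript with most counts was Ccnb1-207 with 45.8% of all Ccnb1 counts. Cdk1 went the other way: its coding share was 46.5% to 85.7% in P20 WT 1 and 2 and Irx5KO 3 and 4, and 96.4% to 100% in the other 10 libraries, with the retained-intron transcript Cdk1-204 holding 15.8% of all Cdk1 counts. For Ccna2, the nonsense-mediated decay transcript Ccna2-203 held 38.9% of all counts beside 45.3% for the coding Ccna2-201, and it drew 780 and 1043 estimated counts in P20 Irx5KO 3 and 4, 365 in WT 1 and 0 in WT 2. For Aurkb the coding share was 80.8% and 72.0% in P20 WT 1 and 2 and 74.7% and 26.0% in P20 Irx5KO 3 and 4, with the remainder mostly in retained-intron transcripts. Mki67-201 held 99.95% of Mki67 counts, and Ccnb2 and Ube2c had coding transcripts alone. These shares come from a model that divides reads among overlapping transcripts, and most of the low libraries rest on few counts.

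**Figure D4:**
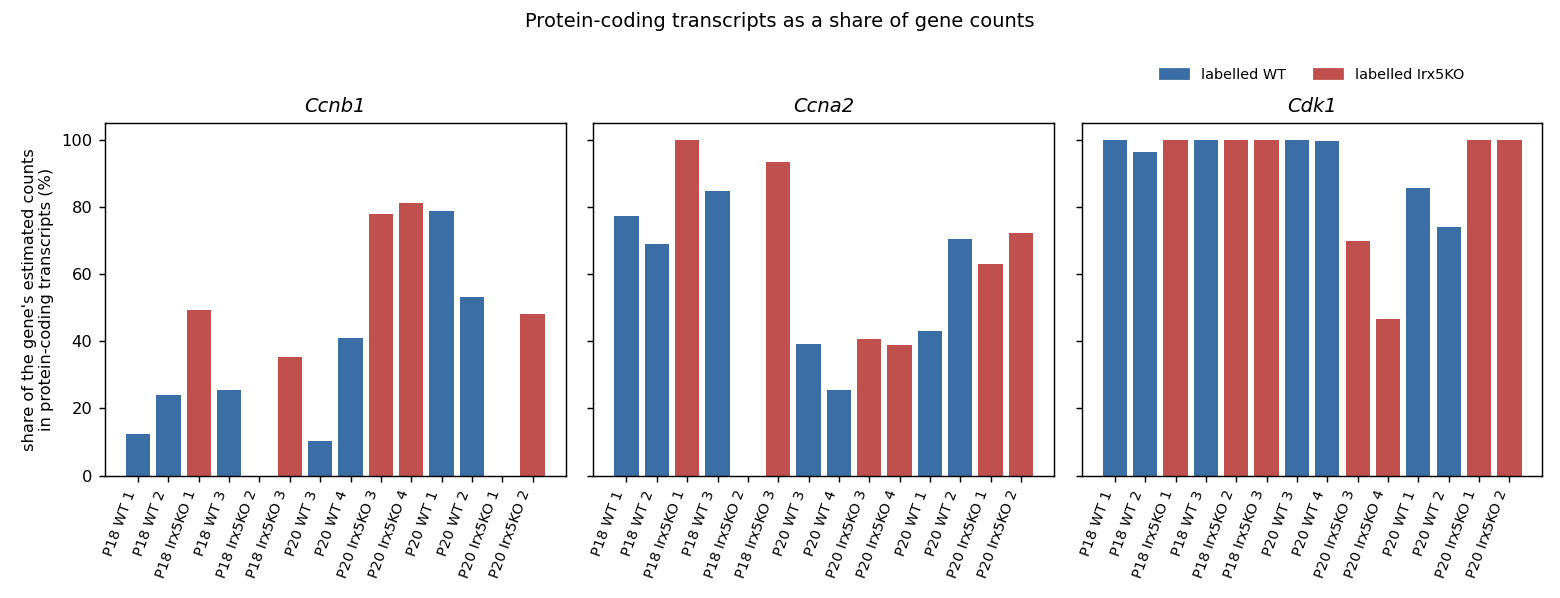
Share (%) of the estimated counts of Ccnb1, Ccna2 and Cdk1 in protein-coding transcripts, 1 bar per library, labelled WT in blue and Irx5KO in red. Ccnb1 is at 53.3% to 81.4% in P20 Irx5KO 3 and 4 and P20 WT 1 and 2 and at 49.4% or less elsewhere, and Cdk1 is at 85.7% or less in those 4 and at 96.4% or more elsewhere.

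Reads of 2 members can be shared with a pseudogene copy. Ccnb1-ps held 0 to 30 counts and Ccnb2-ps 6 to 267 counts in a library. Strand use in counting was not stated, and Ccna2 overlaps Exosc9 on the opposite strand (up to 759 counts), as Cdc20 does Elovl1 (up to 3366 counts), so reads from these overlaps cannot be told apart.

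Across the 14 libraries the 10 genes varied together in log2 CPM. The Pearson correlation of the 45 pairs of genes ran from 0.691 (Aurka with Aurkb) to 0.975 (Cdk1 with Ube2c), with a median of 0.897. These are descriptions over 14 libraries that share ages, dates and labels. The 5 genes outside the group whose log2 CPM was most like the mean of the 10 were Arhgap11a (r = 0.989), Tacc3 (0.988), Anln (0.987), Nusap1 (0.986) and Aspm (0.984), each over the 14 libraries.

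Lists of other mitotic control genes were set beside the 10 at the same 2 dates. Of 12 Aurora and Polo partners, 4 fell on the later date, where 0.655% of all genes passed, and 9 rose on the earlier date, where 4.83% did, with medians of −2.40 and 5.31 against −0.34 and 0.00 over all genes tested. Incenp, the scaffold of the complex that holds Aurora B, fell by 2.34 ± 0.39 (adjusted p = 0.0093) and rose by 3.58 ± 0.41 (adjusted p = 1.2e-04). Tpx2, the activator of Aurora A on the spindle, fell by 3.30 ± 0.55 (adjusted p = 0.014) and rose by 6.02 ± 0.62 (adjusted p = 1.3e-04). Cdca8, another subunit of the Aurora B complex, fell by 2.42 ± 0.45 (adjusted p = 0.021) and rose by 6.06 ± 0.54 (adjusted p = 1.3e-05). Pbk was the fourth to fall, and since it was at 0 counts in 2 libraries its fitted change is not given.

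Of 17 CDK1 regulators tested, none passed on the later date and 5 rose on the earlier date, with medians of −0.52 and 1.00. For this and the lists that follow, the shares over all genes tested are again 0.655% and 4.83% passing, and the medians −0.34 and 0.00. Pkmyt1, an inhibitory kinase of CDK1, rose by 2.93 ± 0.46 (adjusted p = 0.0015), and Cdc25c, a phosphatase that removes that inhibition, rose by 6.91 ± 1.16 (adjusted p = 0.0025) after −3.99 ± 1.00 on the later date (adjusted p = 0.12). Cks2 rose by 3.57 ± 0.62 (adjusted p = 0.0032) and Mastl, the kinase that blocks the phosphatase opposing CDK1, by 3.88 ± 0.73 (adjusted p = 0.0052). Of the 14 core subunits of the APC/C, none passed on either date, with medians of −0.24 and 0.32. Cdc27, the subunit with the smallest p on the earlier date, was at 0.85 ± 0.26 (adjusted p = 0.086). Of 11 APC/C coactivators, inhibitors and substrates, 1 fell on the later date and 4 rose on the earlier date. That was Bub1b, a checkpoint inhibitor of CDC20, which fell by 4.04 ± 0.50 (adjusted p = 0.0012) and rose by 7.77 ± 0.61 (adjusted p = 7.7e-06).

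A list of 15 genes held regulators of the DREAM and MuvB complexes, which act at CHR elements, and the subunit genes of NF-Y. Its medians were −0.08 and 0.87 on the later and the earlier date, against −0.34 and 0.00 over all genes tested. Of its genes, 2 fell on the later date and 4 rose on the earlier date. The 2 were the activators Foxm1, which fell by 2.36 ± 0.44 (adjusted p = 0.018) and rose by 6.13 ± 0.52 (adjusted p = 1e-05), and Mybl2, which fell by 2.71 ± 0.57 (adjusted p = 0.041) and rose by 5.35 ± 0.65 (adjusted p = 1.8e-04). Of 12 proliferation markers of S phase and chromosome structure, 5 fell on the later date and 10 rose on the earlier date, with medians of −1.33 and 2.04. Top2a, the topoisomerase that untangles sister chromatids, fell by 4.63 ± 0.37 (adjusted p = 3.8e-05) and rose by 6.89 ± 0.41 (adjusted p = 9.2e-07). Mcm2, a subunit of the replicative helicase, fell by 2.89 ± 0.29 (adjusted p = 1.9e-04) and rose by 3.75 ± 0.30 (adjusted p = 7.8e-06).

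**Figure D5:**
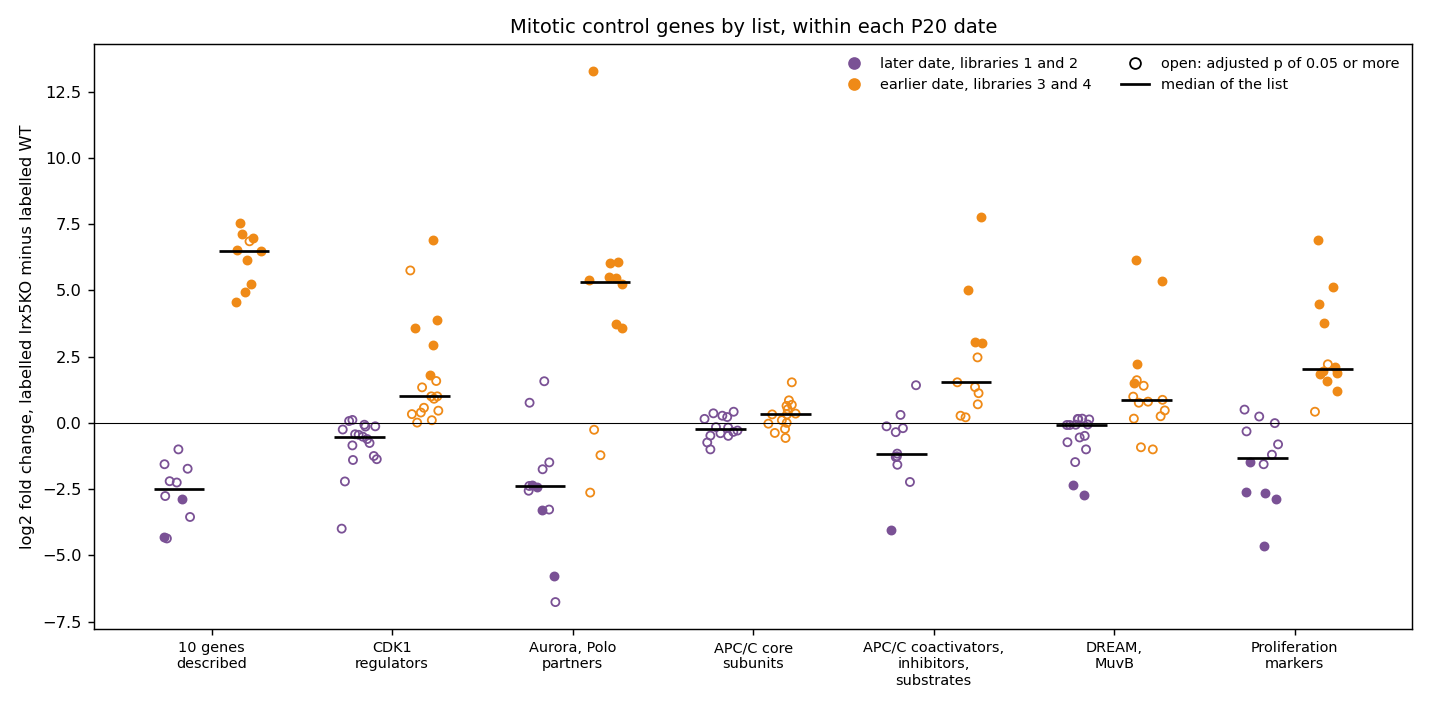
Log2 fold change (labelled Irx5KO minus labelled WT) of the 10 genes and of 6 lists of mitotic control genes at P20, later date in purple and earlier date in orange, with 1 point per gene, filled where the adjusted p was under 0.05, and a line at the median. The core APC/C subunits lie near 0 on both dates with no filled point, while the 10 genes have medians of −2.51 and 6.50. The highest and lowest points of the Aurora and Polo list, Pbk and Aurkc, rest on libraries with 0 counts.

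Markers of the sorted cells and of other skin cells were read beside these values. Bulge markers summed to 11600 to 13840 CPM in WT and 15290 to 16790 CPM in Irx5KO on the later P20 date, with 0 of 10 markers passing. On the earlier date they summed to 21400 to 27680 CPM in WT and 14770 to 15260 CPM in Irx5KO, with 1 of 10, Postn, lower in Irx5KO (−1.89 ± 0.31, adjusted p = 0.0023). On both dates the label that was higher for the mitotic genes was the lower for the bulge sum. Krt15 alone ran from 4830 to 17220 CPM over the 14 libraries and Postn from 1038 to 5368 CPM. Every other bulge marker stayed at or below 1887 CPM, so the sum mostly follows Krt15 and Postn. Hair germ and matrix markers summed to 240.6 to 464 CPM over the P20 libraries, with 0 of 9 passing on either date, and Shh, made by the activated germ, was at most 8.83 CPM in any library. T cell markers summed to 155 and 793 CPM in the later WT libraries, 218 and 228 CPM in the later Irx5KO libraries, 55.2 and 58.7 CPM in the earlier WT libraries and 32.6 and 40.4 CPM in the earlier Irx5KO libraries, with 0 of 6 passing on either date. On the later date 3 of the 6 T cell differences were positive, with a median of 0.13. They ran from −1.22 ± 0.79 for Thy1 to 0.54. Suprabasal markers summed to 1353 to 2049 CPM in WT and 1479 to 5637 CPM in Irx5KO on the later date, and to 792 to 1897 CPM and 1152 to 1294 CPM on the earlier date, with 0 of 8 passing on either date. Interfollicular basal markers summed to 11430 to 17930 CPM and macrophage and Langerhans markers to 19.0 to 148 CPM over the P20 libraries, with 0 of 6 of each list passing on either date. The basal sum rests mostly on abundant genes such as Krt5 (3982 to 11500 CPM over the 14 libraries) and Krt14 (2073 to 6877 CPM). Ly6a of the same list was at most 2.72 CPM, so the sum was not read as a share of interfollicular cells. Mast cell markers summed to 0.814 and 8.77 CPM in the later WT libraries, 1.11 to 1.84 CPM in the later Irx5KO libraries, 0.484 to 1.20 CPM in the earlier WT libraries and 0 in the earlier Irx5KO libraries, with none passing.

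The remaining 3 marker lists each had 1 gene that passed on the earlier date and none on the later date. Melanocyte markers summed to 107 to 136 CPM in WT and 180 to 231 CPM in Irx5KO on the later date, and to 245 to 255 CPM in WT and 76.5 to 80.2 CPM in Irx5KO on the earlier date. As with the bulge sum, the label that was higher for the mitotic genes was the lower on both dates. This sum mostly follows Mitf, since every other melanocyte marker stayed at or below 38.5 CPM. Gene by gene, 3 of the 6 differences were positive on the later date, with a median of −0.18. On the earlier date 1 of 6 was positive, with a median of −2.33. The melanocyte gene that passed was Mitf, which alone ran from 64.6 to 248 CPM over the 14 libraries and fell by 1.86 ± 0.29 on the earlier date (adjusted p = 0.0013), while the pigment gene Dct was at 1.41 ± 0.53 (adjusted p = 0.17). Endothelial markers summed to 10.5 to 34.2 CPM in WT and 24.0 to 29.95 CPM in Irx5KO on the later date, and to 6.09 to 12.0 CPM and 3.59 to 6.87 CPM on the earlier date, where Kdr passed as lower in Irx5KO (adjusted p = 0.049, with 0 counts in 2 of the 14 libraries). Fibroblast and dermal papilla markers summed to 115 to 245 CPM in WT and 52.05 to 158 CPM in Irx5KO on the later date, and to 209 to 327 CPM and 292 to 304 CPM on the earlier date, where Pdgfra passed as lower in Irx5KO (adjusted p = 0.049, with 0 counts in 1 library). The part of other cells in the mitotic levels was not tested.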

How the data were processed

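Single-end reads came from total RNA of the sorted cells after an Illumina library preparation, per the labels' protocols. Reads were assigned with kallisto 0.46.2, per the labels' protocols, and the submitters' processing notes name the build mm10 and DESeq2. The authors deposited, for each of 118489 transcripts per library, an estimated count and a TPM value. Neither the transcript annotation nor the strand setting was given in the sources used here.

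Estimated counts were summed by gene with the GENCODE mouse vM21 annotation (116816 transcripts matched, 1673 not, holding 1.19% to 2.59% of counts) and rounded. The tool edgeR 4.0.16 in R 4.3.3 fitted all 14 libraries (default filter by group, robust quasi-likelihood tests). TMM factors were computed over the 10536 genes with a mean CPM of at least 8, because receptor genes differed between libraries, and CPM values use them. Genotype fits had date within age as a covariate, within-date values used a fit in which each date and genotype had its own coefficient, and age fits had no date term. Benjamini-Hochberg adjustment ran over 24592 genes, with a threshold of 0.05. The SE was obtained by dividing the absolute fold change by the root of F, so it is approximate. The fits were tested on simulated data.

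Replicates of a group differed beyond sampling noise (chi-square of 56 to 397 for each degree of freedom), so none was counted as a repeat deposit. Deviations from the group mean in libraries numbered alike correlated over 10493 genes at 0.37, 0.15 and 0.29 at P18. At P20 the values were 0.04, 0.44, 0.17 and 0.31. Between ages they were 0.28, 0.76 and 0.55 in WT and 0.06, 0.07 and 0.13 in Irx5KO. Libraries numbered unlike were not compared, so these values do not show whether the numbers pair the libraries. The main fits took no pairing. Alternatives were another scaling, no filter, DESeq2 1.42.0, limma 3.58.1 with voom and sample quality weights or with log2(TPM + 1), other covariates, replicate block, the compared groups alone, and leaving out libraries. Counting protein-coding transcripts alone was chosen after seeing the data.

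The 10 genes and the lists were chosen with earlier results of these data known. All 10 are named in the text, with Irx5, up to 4 genes with the smallest p of each list, up to 3 markers of each other cell type, and the 5 genes most like the mean of the 10. Ddx3y, Exosc9, Elovl1 and the pseudogene copies were named after their values were seen.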

Additional observations from a re-analysis of the deposited data

Results flagged for a closer look

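The genotype difference at P20 differed between the 2 dates for 9 of the 10 genes, by the direct test of the later-date minus the earlier-date log2 fold change (edgeR quasi-likelihood test, adjusted p under 0.05). That value was −11.85 for Mki67, −7.13 for Cdk1, −10.67 for Ccna2, −9.03 for Ccnb1, −8.53 for Ccnb2, −8.73 for Plk1, −5.55 for Aurka, −6.99 for Cdc20 and −9.28 for Ube2c. The targeted gene itself had a date difference of −4.37 ± 0.38 (adjusted p = 5.4e-06): on the earlier date its level went against the labels. On both dates the 2 libraries with more Irx5 had the higher mean CPM of each of the 10 genes, so the sign of the difference turns on the labels of libraries 3 and 4, and whether these were exchanged was not tested. The sources used here do not say what else set the 2 dates apart.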

How the results depend on the processing

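On the later P20 date Mki67 passed under every alternative run, but the number of the 10 genes that fell was 6 with no filter, 5 with DESeq2, 5 without the 3 receptor-rich libraries, and 1 with voom (here always with sample quality weights, so that tool and weighting changed together), with the replicate block, with the compared groups alone and with protein-coding transcripts only. It ranged from 1 to 5 when single libraries were left out. The number of all genes called there was 161, against 668 with no filter, 463 with DESeq2, 32 with voom and 33 with the compared groups alone. It was 196 without the receptor-rich libraries, 120 with the replicate block, 123 with protein-coding transcripts only, and 29 to 255 when single libraries were left out. On the earlier date, 7 to 10 of the 10 rose under every alternative, and the count of all genes was 1187, against 2647 with DESeq2, 2100 with no filter, 1894 with voom, 1879 without the receptor-rich libraries, 732 with TPM, 708 with the compared groups alone and 424 without P20 WT 3. With the replicate block 8 of the 10 rose there, among 985 genes called, and Ccna2 did not pass (7.18 ± 1.37, adjusted p = 0.052). The replicate block called none of the 10 in the P18, pooled P20 and age comparisons. In the date difference the count of all genes was 1274, against 2404 with DESeq2, 2041 with no filter and 649 without P20 WT 3.

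Over both P20 dates, voom called 9 of the 10 among 181 genes. The fit without libraries 3 and 4 called 1 of the 10 among 119 genes, with Mki67 at −4.33 and the median of the 10 at −2.51. Leaving out single libraries moved Mki67 between −2.67 and 5.87 and the median between −0.88 and 4.74. At P18, Aurka turned to −0.03 with TPM and −0.14 with no date term, and Mki67 turned to 0.32 without the receptor-rich libraries and ran from −1.33 to 0.37 when single libraries were left out. For age in WT, voom gave −1.12 for Mki67 and −1.71 for the median, and the fit without libraries 3 and 4 called 1 of the 10 among 233 genes. The median ran from −0.05 to 1.60 when single libraries were left out. It was 1.82 without the receptor-rich libraries and 1.65 without libraries 3 and 4. For age in Irx5KO, DESeq2 called 8, and Mki67 was −0.36 without libraries 3 and 4. The count of all genes was 48 for age in WT, against 682 with DESeq2 and 14315 with voom, and 386 for age in Irx5KO, against 1390 with DESeq2 and 1282 with voom. The causes were not tested.

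TMM factors over all genes shifted the median of well expressed genes by 0.34 at P18 and 0.40 for age in WT. In the 2 within-date comparisons and the date difference no direction of the 10 genes changed under any alternative. With 2 libraries per label and date, and counts of 0 to 62 for these genes in P20 WT 4, the lower sets are measured with little precision.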
